A study of Arabidopsis thaliana with 6 samples.

Results

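The genes described here are 10 nitrate carriers of the NRT1 group in Arabidopsis thaliana. They are NRT1.1, NRT1.2, NRT1.4, NRT1.5, NRT1.7, NRT1.8, NRT1.9, NRT1.11, NRT1.12 and NAXT1. They were taken by locus identifier from the 33602 genes of the deposited table, and all 10 were found there. The study measured RNA of Columbia (Col) seedlings after 12 days on nitrogen-free mineral salts with 0.5% sucrose. The only nitrogen source was 5 mM NH4NO3 in 3 libraries and 5 mM glutamine (Gln) in the other 3. No mutant or transgene was used, and the groups share the genotype, age, salts and sucrose. Because the Gln medium lacked NH4NO3, the presence of Gln and the absence of nitrate and ammonium cannot be told apart in any value given here.

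NRT1 proteins belong to the NPF family of membrane carriers, most of which bring their substrate across a membrane together with protons. In plants the family carries nitrate, peptides, hormones and glucosinolates. Nitrate taken up by the root is either used there, stored, or passed into the xylem, the vessels that lead to the shoot, and from leaves it is moved on in the phloem. The 10 carriers act at different points of this path. NRT1.1 and NRT1.2 take nitrate up at the root surface, NAXT1 releases it from the root, NRT1.5 loads it into the xylem, NRT1.8 takes it back out of the xylem, and NRT1.9 loads root phloem. In the shoot, NRT1.4 acts in the petiole, NRT1.7 loads the phloem of older leaves, and NRT1.11 and NRT1.12 work in companion cells of leaf veins.

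The libraries held 28654470 to 35421767 reads in genes, as recovered from the table. The share of genes with an even number of reads, over those with 1 to 100 reads, lay between 57.8% and 60.9% in 5 libraries, but at 44.9% in replicate 2 of NH4NO3. That library stands apart in this measure, and counts of calls without it are given beside those with it. The labels number the replicates but do not state that they were grown apart, so p-values speak only of the spread among these 6 libraries, part of which may be technical.

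The proteins of the 10 genes, translated from the RefSeq annotation of TAIR10.1, are 577 to 620 residues long. Identity over the 45 pairs ranged from 28.7% to 78.7%, with a median of 34.1%. NRT1.11 and NRT1.12 were 78.7% identical, NRT1.5 and NRT1.8 67.4%, NRT1.1 and NRT1.4 55.1%, and NRT1.7 and NRT1.9 46.4%. A glutamate motif of proton-coupled carriers, E, any 2 residues, E, then R or K, was found within the first 150 residues in 6 of the 10 proteins and not in NRT1.2, NRT1.5, NRT1.8 or NAXT1. The 250 bases before the annotated start of 4 genes are shown, since NRT1.8 and NRT1.11 had the largest rise and the largest fall and NRT1.5 and NRT1.12 are their closest relatives. Each is written 5′ to 3′ on the gene's own strand, from TAIR10.1, and capitals mark TATAAA, the core of a TATA box, on that strand.
NRT1.8, chr4:11519806-11520055, minus strand: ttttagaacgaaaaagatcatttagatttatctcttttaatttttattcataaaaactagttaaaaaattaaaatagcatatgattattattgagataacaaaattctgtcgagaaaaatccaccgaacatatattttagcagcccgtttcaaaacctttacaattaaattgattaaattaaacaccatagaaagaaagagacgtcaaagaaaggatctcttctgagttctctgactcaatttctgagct
NRT1.5, chr1:11719989-11720238, minus strand: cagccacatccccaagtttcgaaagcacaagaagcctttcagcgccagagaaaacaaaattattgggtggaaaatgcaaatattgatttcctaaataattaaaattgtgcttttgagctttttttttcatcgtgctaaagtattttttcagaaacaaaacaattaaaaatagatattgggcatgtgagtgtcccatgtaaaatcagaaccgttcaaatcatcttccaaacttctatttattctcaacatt
NRT1.11, chr1:19434230-19434479, plus strand: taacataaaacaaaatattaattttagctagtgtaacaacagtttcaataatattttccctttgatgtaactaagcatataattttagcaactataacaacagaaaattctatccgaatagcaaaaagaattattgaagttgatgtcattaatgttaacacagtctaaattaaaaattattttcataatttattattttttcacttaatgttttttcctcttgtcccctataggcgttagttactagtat
NRT1.12, chr3:5485188-5485437, minus strand: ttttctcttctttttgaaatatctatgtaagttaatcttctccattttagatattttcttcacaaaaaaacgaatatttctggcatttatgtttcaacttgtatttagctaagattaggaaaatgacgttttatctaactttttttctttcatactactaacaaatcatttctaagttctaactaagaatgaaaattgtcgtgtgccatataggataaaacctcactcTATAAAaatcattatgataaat

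TATAAA was present in the same window of 4 of the 10 genes, NRT1.1, NRT1.2, NRT1.4 and NRT1.12, and in 32.93% of the windows of 27443 coding genes. GAATC, a motif bound by the nitrate-induced repressors of the HRS1 family, was searched on both strands and found in none of the 10 windows, against 38.85% of all windows. The longer palindrome GAATATTC was also found in none (0.86% of all). A nitrate-responsive element, written as GACNCTT, any 10 bases, then AAG, was found in none on either strand (0.15% of all). These counts describe the letters in 250 bases and nothing further upstream.

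Seedlings on Gln had lower transcript levels of most of these carriers and higher levels of 3, among them both xylem carriers. In RNA of whole-plant material such as this, fewer cells of a type and less RNA per cell cannot be told apart. All 10 genes, which were chosen with earlier results of these data known, were tested. All 10 differed between the groups by limma at an adjusted p under 0.05. They do not stand for every nitrate carrier of the group or its near relatives. NRT1.6 (AT1G27080) averaged 0.0155 RPKM on NH4NO3 and 0.00863 RPKM on Gln and was not tested. NPF6.4 (AT3G21670), closest to NRT1.4 at 54.0% identity, was tested and not called (adjusted p = 0.37 by limma). NRT1.5, NRT1.8 and NRT1.9 were higher in Gln, and NRT1.1, NRT1.2, NRT1.4, NRT1.7, NRT1.11, NRT1.12 and NAXT1 were lower. Over all 19284 genes tested, 41.2% were called, 21.4% higher and 19.8% lower. The 3 values of one group lay wholly above or below those of the other for all 10 carriers and for 53.6% of all genes tested. The median log2 fold change, taken as Gln minus NH4NO3 of log2(RPKM + 1), was -0.31 for the 10 carriers and -0.02 for all genes tested. RPKM are reads scaled to gene length and library size. Without NH4NO3 replicate 2, 2 carriers were higher and 6 lower, since NRT1.4 and NRT1.9 were no longer called. Over all genes 3314 were then higher and 2586 lower, in place of 4126 and 3816. Leaving out another NH4NO3 library also lowered the counts. Without replicate 1, 3 carriers were higher and 5 lower, with 3659 and 3205 over all genes. Without replicate 3 the counts were 2 and 6, with 3622 and 3026 over all genes.

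**Figure D1:**
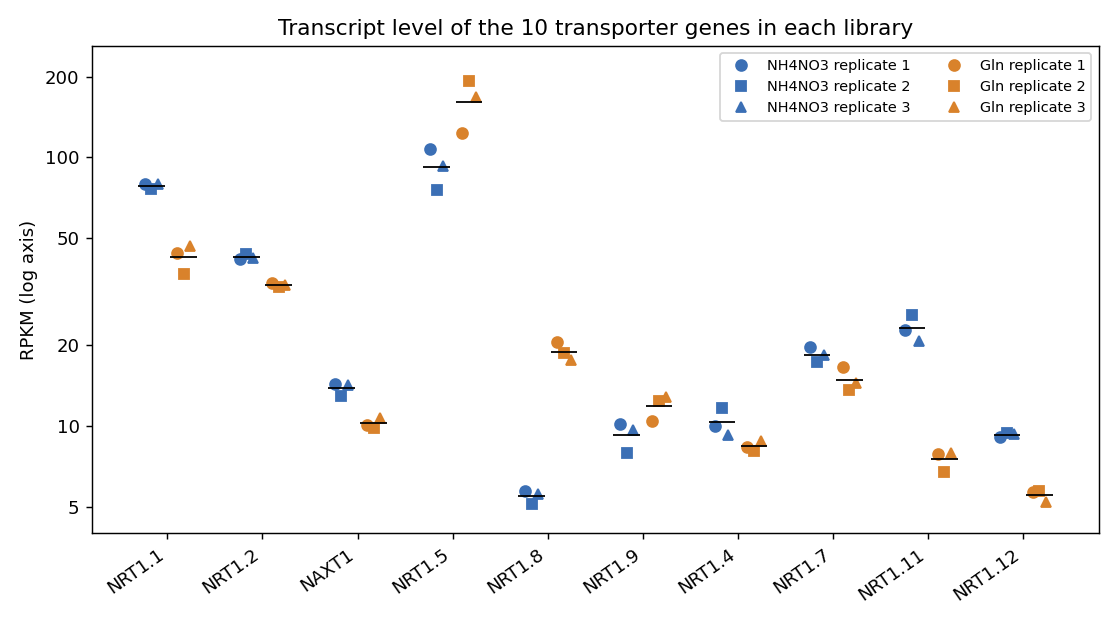
Transcript level of each of the 10 carrier genes in RPKM on a log axis, 1 point per library, with a short line at each group mean and a different marker for each replicate number. The Gln points lie above the NH4NO3 points for NRT1.5, NRT1.8 and NRT1.9 and below them for the other 7 genes.

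Of the carriers of root uptake and release, NRT1.1 changed most. NRT1.1 (AT1G12110, chromosome 1, 4105223 to 4109601, plus strand, 5 exons) encodes a dual-affinity nitrate carrier that also acts as a nitrate sensor. Its level was 79.8, 76.0 and 79.8 RPKM in NH4NO3 replicates 1 to 3, and 44.3, 36.8 and 46.7 RPKM in Gln replicates 1 to 3. The groups did not overlap, and Gln replicate 2 was the lowest library. The log2 fold change was -0.87 ± 0.09 (SE here and below), with an adjusted p of 6.1e-05. This is a mean 1.84 times higher in NH4NO3 than in Gln.

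NRT1.2 (AT1G69850, chromosome 1, 26296540 to 26300684, minus strand, 5 exons) encodes a low-affinity nitrate carrier of the root epidermis and is also known to import abscisic acid. It stood at 41.8, 43.7 and 42.4 RPKM in NH4NO3 and at 34.2, 33.0 and 33.5 RPKM in Gln. The libraries of each group were close to each other, and the fall was small but larger than their spread (log2 fold change -0.34 ± 0.06, adjusted p = 0.0018). NAXT1 (AT3G45650, chromosome 3, 16758877 to 16761430, plus strand, 4 exons in its longest transcript) encodes a plasma membrane carrier that excretes nitrate from root cells. Its values were 14.3, 12.9 and 14.2 RPKM in NH4NO3 against 10.13, 9.88 and 10.7 RPKM in Gln. It fell by 0.40 ± 0.08 on the log2 scale, with an adjusted p of 0.0025. Another gene of the table, AT3G45660, encodes the family protein closest to NAXT1 at 83.3% identity, and averaged 0.519 ± 0.0576 RPKM (mean ± SD, n = 3) on NH4NO3 and 0.398 ± 0.0332 RPKM on Gln, below the limit for testing. The deposited multi-read ratio was 0 for all 10 carriers.

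The carriers of the xylem were both higher in Gln. NRT1.8 (AT4G21680, chromosome 4, 11517353 to 11519805, minus strand, 4 exons) encodes the carrier that removes nitrate from xylem sap. Its level was 5.74, 5.149 and 5.603 RPKM in NH4NO3 and 20.6, 18.7 and 17.6 RPKM in Gln. The lowest Gln library was at 3.06 times the highest NH4NO3 library, and the mean was 3.45 times higher. The log2 fold change was 1.62 ± 0.08 (adjusted p = 1.3e-06), a size that exceeded that of 98.9% of all genes tested. The NH4NO3 values rest on 341 to 400 reads per library and the Gln values on 1280 to 1470.

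NRT1.5 (AT1G32450, chromosome 1, 11715147 to 11719988, minus strand, 6 exons) encodes the carrier that loads nitrate into root xylem. NH4NO3 replicates 1 to 3 were at 107, 75.8 and 92.7 RPKM and Gln replicates 1 to 3 at 124, 192 and 168 RPKM. The groups did not overlap, but the spread within each was the widest of the 10 genes, and the lowest Gln library was 1.15 times the highest NH4NO3 library. It rose by 0.79 ± 0.16 on the log2 scale, with an adjusted p of 0.0038. With no filter on low values the adjusted p was 0.061, in a range from 0.00077 to 0.061 over 16 alternative settings.

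The carriers of the phloem went both ways. NRT1.9 (AT1G18880, chromosome 1, 6520721 to 6523368, plus strand, 4 exons) acts in companion cells of root phloem. Its level was 10.2, 7.94 and 9.65 RPKM in NH4NO3 and 10.5, 12.5 and 12.9 RPKM in Gln. The groups were separated by a narrow gap, between NH4NO3 replicate 1 and Gln replicate 1. The log2 fold change was 0.34 ± 0.11 with an adjusted p of 0.031, which ranged from 0.011 to 0.12 over the alternatives and was 0.12 without NH4NO3 replicate 2. In the RefSeq annotation 605 exon bases of NRT1.9 overlap CDPK1 (AT1G18890), a calcium-dependent protein kinase gene on the other strand. CDPK1 was called higher too, with 26.5 ± 1.93 RPKM on NH4NO3 against 38.4 ± 1.17 RPKM on Gln. The library kit does not mark strand, so reads of the shared bases cannot be told apart.

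NRT1.7 (AT1G69870, chromosome 1, 26315787 to 26320233, plus strand, 4 exons) loads nitrate into the phloem of older leaves for re-use in younger ones. It was at 19.6, 17.4 and 18.4 RPKM in NH4NO3 and at 16.6, 13.7 and 14.5 RPKM in Gln. The gap between the groups was narrow, and the log2 fold change was -0.29 ± 0.09 (adjusted p = 0.022). This adjusted p rose above the threshold without any one of NH4NO3 replicates 1 and 3 or Gln replicates 2 and 3, to between 0.058 and 0.082. Between NRT1.2 and NRT1.7 on the chromosome lies another family gene, AT1G69860, which was almost silent at 0.00818 to 0.0528 RPKM over the 6 libraries. NRT1.4 (AT2G26690, chromosome 2, 11347147 to 11350993, minus strand, 6 exons) is known for nitrate storage in the petiole. Its values were 10.06, 11.7 and 9.27 RPKM in NH4NO3 and 8.37, 8.08 and 8.83 RPKM in Gln. Its fall of 0.26 ± 0.09 on the log2 scale only just passed (adjusted p = 0.048). Without NH4NO3 replicate 2, its highest library, the log2 fold change was -0.18 and the adjusted p 0.19, and the call was also lost without NH4NO3 replicate 1 or any one Gln library.

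The largest fall was that of NRT1.11 (AT1G52190, chromosome 1, 19434480 to 19439031, plus strand, 4 exons). With NRT1.12 it passes nitrate from xylem to phloem in the major veins of expanded leaves, which feeds young leaves. NRT1.11 was at 22.8, 25.8 and 20.7 RPKM in NH4NO3 and at 7.89, 6.75 and 7.93 RPKM in Gln. The highest Gln library was at 38.2% of the lowest NH4NO3 library, and the mean was 3.07 times higher in NH4NO3. The log2 fold change was -1.50 ± 0.10 (adjusted p = 4.6e-06), beyond the size of 98.6% of genes tested. NRT1.12 (AT3G16180, chromosome 3, 5481325 to 5485187, minus strand, 4 exons) was at 9.08, 9.45 and 9.34 RPKM in NH4NO3 and at 5.70, 5.74 and 5.23 RPKM in Gln. It fell by 0.65 ± 0.08 on the log2 scale (adjusted p = 0.00018), and the libraries of each group lay close together. Smaller exon overlaps with a neighbouring gene, of 16 to 113 bases, are annotated for NRT1.4, NRT1.5, NRT1.8 and NRT1.12, and for the reads in them the same limit holds as for NRT1.9.

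Ratios between 2 carriers within a library were taken for the 4 pairs of relatives named above and for the root uptake carriers NRT1.1 and NRT1.2, which are 37.5% identical. In all 5 pairs the levels lay closer together in Gln. The pairs were compared with the exact permutation test over samples (2-sided, 3 libraries against 3), in which the smallest possible p is 0.10. All 5 pairs gave this smallest p of 0.10, or 0.10 after adjustment over the 5, and in no pair did the groups overlap. For NRT1.7 and NRT1.9, whose levels went opposite ways without overlap, this outcome was fixed in advance. NRT1.1 is in 2 of the pairs, so the 5 are not separate results. NRT1.11 stood at 2.51, 2.74 and 2.22 times the level of NRT1.12 in NH4NO3 and at 1.38, 1.18 and 1.52 times in Gln. The log2 difference, Gln minus NH4NO3, was -0.88 ± 0.14. NRT1.5 was 18.7, 14.7 and 16.5 times as abundant as NRT1.8 in NH4NO3 and 6.004, 10.3 and 9.56 times in Gln, a log2 difference of -0.98 ± 0.26. Both genes of that pair rose, the less abundant one more.

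NRT1.1 against NRT1.4 went from a ratio of 7.67 ± 1.09 (mean ± SD, n = 3) to 5.04 ± 0.428, a log2 difference of -0.60 ± 0.14. NRT1.1 stood at 1.84 ± 0.0916 times NRT1.2 in NH4NO3 and at 1.27 ± 0.143 times in Gln, a log2 difference of -0.55 ± 0.10. The phloem pair NRT1.7 to NRT1.9 went from 2.01 ± 0.157 to 1.27 ± 0.272, a log2 difference of -0.68 ± 0.18, with the reservation on NRT1.9 given above.

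**Figure D2:**
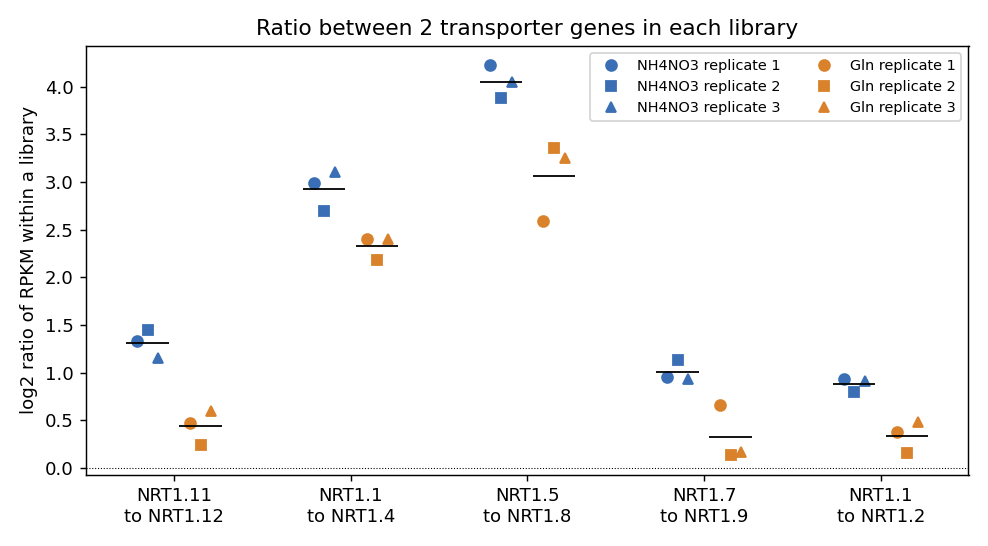
The log2 ratio of RPKM between 2 carrier genes, 1 point per library and a line at each group mean, for the 5 pairs compared. In every pair the 3 Gln points lie below the 3 NH4NO3 points, with the widest spread for NRT1.5 to NRT1.8 in Gln, where replicate 1 is at 2.59 and the other libraries at 3.36 and 3.26.

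The order of the levels changed with the nitrogen source. In NH4NO3 the mean level fell in the order NRT1.5, NRT1.1, NRT1.2, NRT1.11, NRT1.7, NAXT1, NRT1.4, NRT1.12, NRT1.9 and NRT1.8. The libraries of neighbours in this order overlapped for NRT1.5 and NRT1.1, for NRT1.4 and NRT1.12, and for NRT1.12 and NRT1.9. In Gln the order was NRT1.5, NRT1.1, NRT1.2, NRT1.8, NRT1.7, NRT1.9, NAXT1, NRT1.4, NRT1.11 and NRT1.12, and only NRT1.9 and NAXT1 overlapped. NRT1.8 thus moved from rank 10 to rank 4, and NRT1.11 from rank 4 to rank 9. Ranks and shares between genes depend on the gene lengths deposited with the values. For NAXT1 that length was 1.677 kb, against 2295 bases in its longest annotated transcript, so its place beside NRT1.4 is uncertain.

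The summed level of the 10 genes overlapped between the groups. It was 321, 286 and 302 RPKM in NH4NO3 and 282, 337 and 326 RPKM in Gln. What differed was the share of single genes in that sum. NRT1.5 made up 33.5%, 26.5% and 30.7% of it in NH4NO3 and 43.9%, 57.0% and 51.5% in Gln. The share of NRT1.1 was 24.9%, 26.6% and 26.4% in NH4NO3 and 15.7%, 10.9% and 14.4% in Gln. NRT1.8 rose from 1.8% to 1.9% of the sum to 5.4% to 7.3%.

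**Figure D3:**
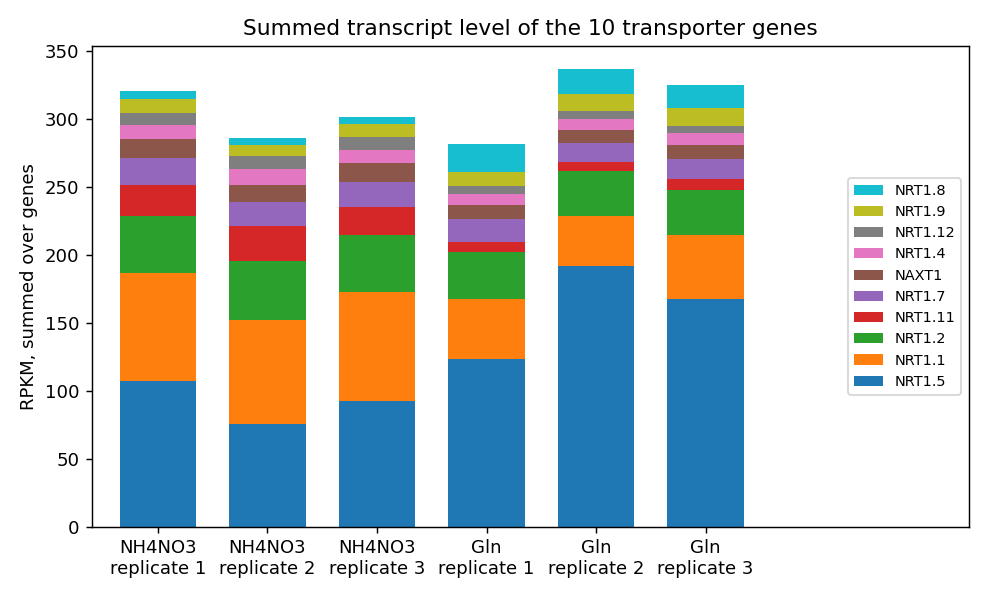
Summed transcript level of the 10 carrier genes in RPKM, 1 bar per library starting at 0, with each gene as a segment. The totals lie between 282 and 337 RPKM, and the NRT1.5 segment at the base is the tallest in every Gln library.

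Set in their family, the carriers included the most changed genes. The 10 were chosen with earlier results of these data known, so their contrast with the rest of the family is no test. The NPF family list held 53 genes, 36 of which reached the mean of 1 RPKM needed for testing. Of these, 8 were called higher, 13 lower and 15 not called, with a median log2 fold change of -0.03. Without NH4NO3 replicate 2 these counts were 6 higher and 9 lower. Of the 43 genes other than the 10 carriers, 26 were tested, and 11 of them, or 42.3%, were called, close to the 41.2% of all genes. Their changes reached from -0.58 to 0.77, and NRT1.8, NRT1.1, NRT1.11 and NRT1.12 lay outside this range. NRT1.5, at 0.79 ± 0.16, was close to its upper end, PTR3 at 0.77 ± 0.09, and the order of the pair changed with the setting (0.80 and 0.86 with a pseudocount of 0.1). Among the rising genes were PTR3 (AT5G46050), a peptide carrier, from 5.81 ± 0.470 to 10.6 ± 0.862 RPKM, and NPF5.14 (AT1G72120), from 3.09 ± 0.265 to 5.31 ± 0.168 RPKM. The glucosinolate carriers GTR1 (AT3G47960) and GTR2 (AT5G62680), relatives of NRT1.9 at 62.9% and 65.2% identity, also rose, the first from 41.0 ± 3.03 to 60.3 ± 1.24 RPKM and the second from 32.3 ± 1.77 to 39.6 ± 1.38 RPKM. Those that fell included PTR4 (AT2G02020), from 6.11 ± 0.250 to 3.78 ± 0.442 RPKM, and NPF3.1 (AT1G68570), from 3.95 ± 0.375 to 2.91 ± 0.479 RPKM. AT5G13400 fell from 8.27 ± 0.527 to 6.32 ± 0.402 RPKM and AT1G72130 from 13.5 ± 0.906 to 10.5 ± 0.959 RPKM. The call of NPF3.1 (adjusted p = 0.039) was lost without NH4NO3 replicate 1 or 2 or Gln replicate 1 or 3, with no filter on low values (0.13) and with array weights (0.071), and that of AT1G72130 without NH4NO3 replicate 2.

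**Figure D4:**
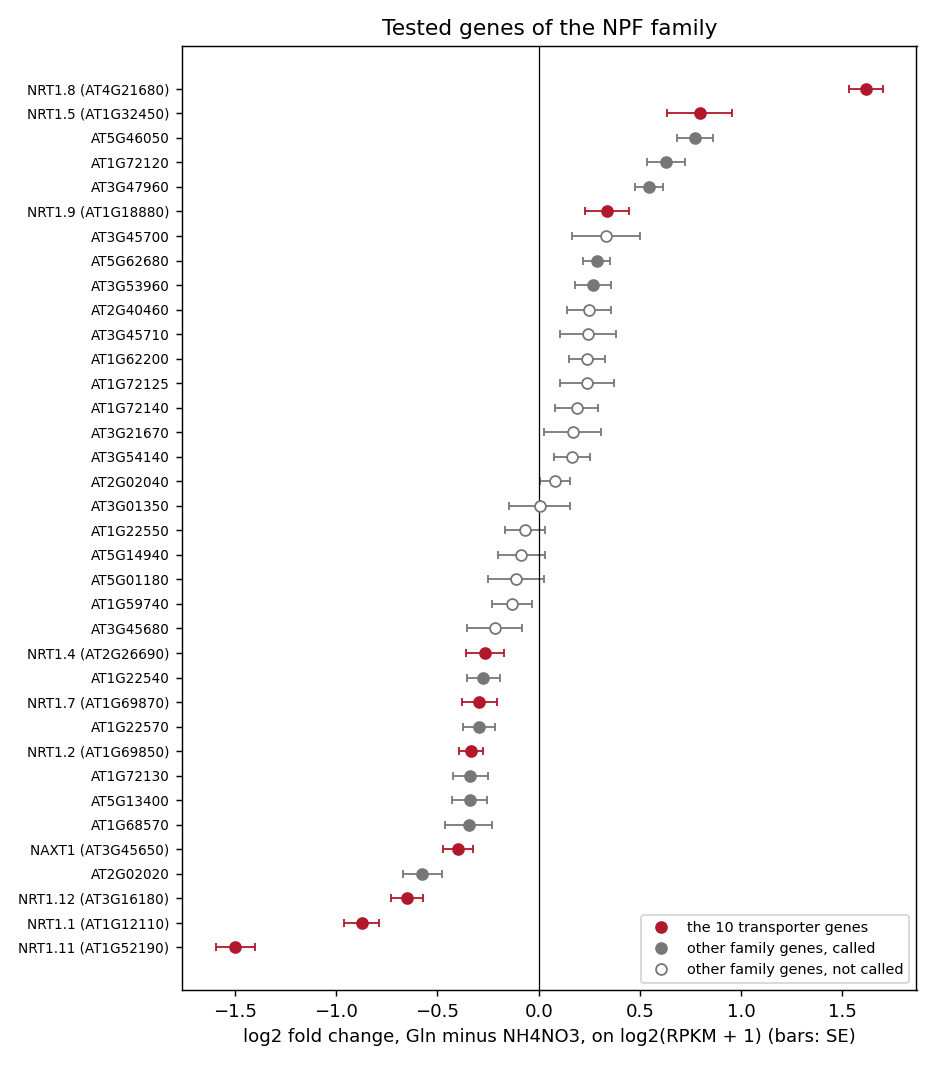
The log2 fold change (the Gln mean less the NH4NO3 mean of log2(RPKM + 1)) of the 36 tested NPF family genes with SE bars, the 10 carriers in red, other genes in grey and genes not called as open circles. NRT1.8 at 1.62 and NRT1.11 at -1.50 are the outermost points.

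Among the tested nitrate carriers and channels outside the NPF family, NRT2.1 changed most. NRT2.4, NRT2.5 and NRT2.6, named after their values were seen, averaged below 1 RPKM and were not tested. Their NH4NO3 means were only 0.0710, 0.117 and 0.0460 RPKM. Their Gln means were 7.61, 15.6 and 16.9 times as high, against 6.23 times for NRT2.1. Of 16 listed genes 15 were in the table and 9 were tested, of which 5 rose, 2 fell and 2 did not pass. That is 77.8% called, against 41.2% of all genes. With no filter on low values, where all 15 genes entered the test, the counts were 7 higher and 1 lower. Without NH4NO3 replicate 2 they were 7 and 2, but not out of the same 9 genes. There the filter was applied again to the libraries kept. NRT2.5 and SLAH4 (0.486 RPKM on NH4NO3 and 1.38 RPKM on Gln over all libraries) then reached 1 RPKM, through their Gln values. NRT2.1, the main high-affinity nitrate carrier of the root, was at 4.53, 2.49 and 4.698 RPKM in NH4NO3 and at 26.1, 25.0 and 21.9 RPKM in Gln. Its partner protein gene NRT3.1 went from 47.5 ± 5.19 up to 89.3 ± 2.53 RPKM (0.90 ± 0.08 on the log2 scale, adjusted p = 3.4e-05). NRT1.1 was therefore 20.1 times as abundant as NRT2.1 in NH4NO3 and 1.75 times in Gln, as ratios of means. The anion channel gene SLAH2 rose from 4.44 ± 0.573 to 8.38 ± 1.22 RPKM and CLC-B, of the vacuolar chloride channel family, from 6.37 ± 1.03 to 11.4 ± 1.56 RPKM. The lower genes, named after their values were seen, were CLC-A, the vacuolar nitrate/proton exchanger, and SLAH1, at -0.72 ± 0.07 and -0.63 ± 0.14 on the log2 scale.

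Of 13 genes listed for the regulation of NRT1 carriers or for nitrate signalling, 12 were tested, and 3 rose, 4 fell and 5 did not pass. The 58.3% called stand against 41.2% of all genes, and without NH4NO3 replicate 2 the counts were 2 higher and 3 lower. MYB59, a transcription factor known to act on NRT1.5, rose from 25.0 ± 2.58 to 35.3 ± 4.95 RPKM. CBL1, a calcium sensor, rose from 67.1 ± 5.03 to 88.1 ± 10.7 RPKM. Both calls were lost with no filter on low values, at adjusted p of 0.061 for MYB59 and 0.064 for CBL1 by limma. LBD39, a repressor of nitrate-responsive genes, fell from 28.5 ± 4.07 to 11.8 ± 0.995 RPKM, and AT3G60320 from 38.3 ± 3.97 to 24.0 ± 2.45 RPKM. CIPK23, the kinase that phosphorylates NRT1.1, also fell, by 0.37 ± 0.06 on the log2 scale, and was named after its values were seen. NLP7, a regulator that answers nitrate and whose activity is known to be set by its place in the cell, was at 17.0 ± 1.099 and 17.0 ± 1.67 RPKM (adjusted p = 0.99).

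Tissue markers also differed between the groups. All 5 root hair markers rose, and their summed level was 23.5 to 25.4 RPKM in NH4NO3 and 59.2 to 77.3 RPKM in Gln. Of 6 markers of root endodermis and stele, 4 rose, none fell by the test and 2 did not pass, with sums of 66.4 to 74.0 and 79.3 to 110.7 RPKM. CASP1, CASP4, MYB36 and PHO1 rose, and SHR was level at 0.01 ± 0.11 on the log2 scale. SKOR went from 1.44 ± 0.362 to 0.840 ± 0.251 RPKM, with no overlap between the groups. Its log2 fold change was -0.40 ± 0.15 (adjusted p = 0.061 by limma). Of the phloem companion cell markers, 4 of 5 were lower and 1 was not called, with sums of 241 to 251 and 173 to 196 RPKM. Of 5 leaf mesophyll markers 3 fell and 2 did not pass, with sums of 14425 to 16395 and 11454 to 13188 RPKM. No marker was at 0, the lowest being at 0.686 RPKM. The carriers that fell with most phloem and leaf markers include the leaf phloem genes NRT1.7, NRT1.11 and NRT1.12, and those that rose with most root markers include NRT1.5 and NRT1.8. Other carriers went the other way from the markers set beside them here. NRT1.9, of root phloem companion cells, rose while most companion cell markers fell. NRT1.1, NRT1.2 and NAXT1, of root uptake and release, fell while root hair markers rose. The lists held no marker of root cortex, and these carriers need not be confined to root hairs. The median log2 fold change of companion cell markers was -0.40, beside -0.29 for NRT1.7, -0.65 for NRT1.12, -1.50 for NRT1.11 and 0.34 for NRT1.9. That of endodermis and stele markers was 0.46, in a range from -0.40 to 0.58, beside 0.79 for NRT1.5 and 1.62 for NRT1.8. That of root hair markers was 1.21, beside -0.87 for NRT1.1, -0.34 for NRT1.2 and -0.40 for NAXT1. The part of tissue makeup in these changes was not tested.

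Genes with the most similar profile over the 6 libraries were sought among 13971 genes whose mean level was 5 RPKM or more, by the distance between log2(RPKM + 1) values centred on each gene's mean. Nearest to NRT1.11 was TDT (AT5G47560), the tonoplast carrier of malate and fumarate, at a distance of 0.214, with 86.4 ± 8.46 RPKM in NH4NO3 and 31.1 ± 2.69 RPKM in Gln. AT2G39870 and AT5G38200 followed at 0.226 and 0.272. Nearest to NRT1.8 were PMZ (AT3G28210), a putative zinc finger protein gene also known as SAP12, at 0.092, the pseudogene AT4G23215 at 0.104 and AT5G25440 at 0.136. PMZ averaged 18.5 ± 0.767 RPKM on NH4NO3 and 59.9 ± 4.29 RPKM on Gln.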

How the data were processed

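RNA of 6 seedling libraries was sequenced by the authors. The deposited table gives RPKM per gene, with the gene length and a multi-read ratio, a fraction that is named but not defined, per the file headers. The name of the deposited table says that values are TMM-normalized. Its columns carry no unit, and RPKM was inferred from the values. The submitters' processing notes name TAIR10 and SAMtools. For the aligner and counter, the tool is not given in the sources used here. Values times length came out as whole reads plus an offset of 0.5, within a tolerance of 0.05, for 98.1% to 98.8% of values up to 20 reads, so depths and read numbers are implied ones.

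Testing covered genes whose mean reached 1 RPKM, on log2(RPKM + 1) with limma 3.58.1 (linear model, empirical Bayes with a mean-variance trend, 2-sided), with Benjamini-Hochberg adjustment over the 19284 genes and a threshold of 0.05. The script was tested on simulated data. Fold changes on this scale understate those of low genes. Pair ratios used the exact permutation test. The members and lists were chosen with earlier results of these data known. From each other list NRT2.1 and the 4 called genes with the largest change, and from the family the 4 in each direction, were named. Gene names, positions, proteins and upstream windows come from RefSeq TAIR10.1. The table's gene length equals an annotated length for 35.3% of 32827 genes, so its gene models or its definition of length differ from those used here. Alternatives were other pseudocounts, filters, scalings, weights, a replicate block and leaving out each library.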

Additional observations from a re-analysis of the deposited data

How the results depend on the processing

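Each of the 10 carriers was refitted under 16 alternative settings, and none changed direction under any of them. NRT1.1, NRT1.2, NRT1.8, NRT1.11, NRT1.12 and NAXT1 passed the threshold in all 16, NRT1.5 in 15, NRT1.7 in 11, NRT1.9 in 10 and NRT1.4 in 8. With no filter on low values, 1 carrier was called higher, 1 other nitrate carrier or channel lower and 1 regulator higher. In that setting NRT1.4 stood at -0.26 (adjusted p = 0.12), NRT1.5 at 0.79 (0.061), NRT1.7 at -0.29 (0.075) and NRT1.9 at 0.34 (0.12) by limma, and the cause was not tested. A minimum mean of 5 RPKM left 1 other carrier or channel lower, with fewer genes tested, and without a mean-variance trend NRT1.4 was at -0.26 (adjusted p = 0.054). The replicate block left NRT1.4 at -0.26 (adjusted p = 0.076) and NRT1.9 at 0.34 (0.051), with 2 carriers higher and 6 lower. The labels do not say whether replicate numbers pair the samples. Deviations from the group mean, on log2(RPKM + 1), correlated at -0.0732, -0.104 and -0.00873 between same-numbered libraries. These values gave no sign of pairing but, with 3 libraries per group, cannot settle it. The 5 pair ratios were recomputed under 8 alternatives (a pseudocount of 1, the replicate block and each library left out) and kept their direction in these. Leaving out 1 library at a time gave -0.33 to -0.18 for NRT1.4, -0.37 to -0.24 for NRT1.7, 0.24 to 0.42 for NRT1.9 and 0.66 to 0.97 for NRT1.5, all as log2 fold changes.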
